A study of Rattus norvegicus with 20 samples.

Results

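The 8 genes described here make fatty acids from acetyl-CoA in the cytosol, or regulate that pathway: Acly, Acaca, Fasn, Me1, Scd, Elovl6, Thrsp and Aacs. They were taken as all probes whose only gene symbol in the platform's annotation is one of these names, which gave 11 probes of the 35129 on the array and all 8 of the genes, among 12199 named on it. The genes were selected on measured values, namely their higher signal under ethinyl estradiol and equilin than under vehicle in these same arrays. Those changes are therefore given as a description without a test, and nothing is inferred from how many of them pass a threshold. Of the 11 probes, 10 passed the filter on dim probes, and every gene kept at least 1. The other, Acaca probe 2, read between -0.03 and 0.26 in deposited intensity on all 20 arrays and was not tested.

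Fatty acid synthesis starts from citrate that leaves the mitochondrion and is split into acetyl-CoA in the cytosol. Acetyl-CoA is carboxylated to malonyl-CoA, a multi-domain synthase joins these units into palmitate with reducing power from NADPH, and palmitate is then elongated and desaturated. The enzymes are known to be induced together by insulin, carbohydrate and thyroid hormone in liver and fat, through sterol regulatory element-binding proteins, the carbohydrate response factor and nuclear receptors. Fat cells lie around mesenteric arteries, and the artery wall itself is made of smooth muscle, endothelium and connective tissue.

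The study asked how estrogens and selective estrogen receptor modulators act on gene expression in the mesenteric arteries, the vessels that feed the gut. All rats were female Sprague Dawley, ovariectomised at 4 weeks of age, so the controls also lacked ovaries. After 2 weeks of recovery they were gavaged once a day for 3 weeks, which puts them at 9 weeks when the arteries were taken. The vehicle was a 20% solution of 2-hydroxypropyl-β-cyclodextrin (4 arrays). Ethinyl estradiol, estradiol benzoate and equilin (3 arrays each) were given at 0.15 mg/kg, and tamoxifen (4 arrays) and raloxifene (3 arrays) at 3 mg/kg. Ethinyl estradiol is a synthetic estradiol with an added ethynyl group, made to survive the oral route. Estradiol benzoate is an ester of estradiol, and equilin is a horse estrogen with an additional unsaturated bond in its ring system. Tamoxifen and raloxifene are non-steroidal ligands that activate or block estrogen receptors depending on the tissue. Each array held RNA of 1 rat, from arteries dissected away from veins and fat, labelled in 1 colour on CodeLink whole rat genome slides.

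The deposited values are linear intensities, scaled so that the array medians ran from 1.0007 to 1.0612. These medians split the arrays in a way that no label explains: they were 1.0408 or above for vehicle replicate 1 and all 9 estrogen arrays, and 1.015 or below for the other vehicle arrays and all 7 arrays of tamoxifen and raloxifene. Raloxifene replicate 3 stood apart, with a highest correlation of 0.873 with any other array. Ethinyl estradiol replicate 3 had a summed intensity of 1022 over 9 pancreatic acinar genes, against 10.3 to 145 in vehicle, a sign of neighbouring tissue in that sample. Changes below are differences in log2(intensity + 0.103), centred on each array's median, with the standard error (SE) or the 95% interval of a limma fit over all 20 arrays. "Passed" means an adjusted p under 0.05 after Benjamini-Hochberg adjustment over 24562 probes. Intensities of different probes are not set against each other, because probes differ in brightness.

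Promoter windows of 250 bases before to 50 bases after the gene start were matched for 5 of the 8 genes in the RefSeq table of the rat build GRCr8, all on the minus strand. The windows of Me1 (chr8:96540195-96540494), Acly (chr10:85963582-85963881) and Thrsp (chr1:161138915-161139214) are printed, 5′ to 3′, because they hold the motifs that were found. Capitals mark each match, on either strand, of the GC box GGGCGG or the NF-Y box CCAAT. These are general promoter elements, and NF-Y is a known partner of sterol regulatory element-binding proteins.
Me1: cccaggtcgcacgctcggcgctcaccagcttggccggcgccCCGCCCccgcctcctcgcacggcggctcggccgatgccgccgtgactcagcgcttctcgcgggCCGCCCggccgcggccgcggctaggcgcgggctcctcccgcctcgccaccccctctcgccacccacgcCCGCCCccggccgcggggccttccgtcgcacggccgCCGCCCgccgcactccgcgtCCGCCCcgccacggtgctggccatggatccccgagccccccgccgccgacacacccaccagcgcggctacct
Acly: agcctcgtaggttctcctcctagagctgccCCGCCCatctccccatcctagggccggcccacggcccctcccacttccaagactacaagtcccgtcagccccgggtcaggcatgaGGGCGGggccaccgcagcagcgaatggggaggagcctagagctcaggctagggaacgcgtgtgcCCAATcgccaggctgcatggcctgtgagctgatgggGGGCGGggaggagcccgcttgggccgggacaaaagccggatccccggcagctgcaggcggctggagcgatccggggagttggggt
Thrsp: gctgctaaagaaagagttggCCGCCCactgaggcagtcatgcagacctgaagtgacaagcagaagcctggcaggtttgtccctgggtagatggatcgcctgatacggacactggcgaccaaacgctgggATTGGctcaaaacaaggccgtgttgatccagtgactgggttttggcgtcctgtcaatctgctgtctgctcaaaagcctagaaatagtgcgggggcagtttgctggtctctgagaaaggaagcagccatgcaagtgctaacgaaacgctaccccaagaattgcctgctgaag
The GC box was found 5 times for Me1, 3 times for Acly and 1 time for Thrsp, so in 3 of 5 windows, and it occurs in 33.1% of all 33469 windows. The NF-Y box was found in 2 of 5 windows, 71 bases before the start of Acly and 121 bases before that of Thrsp, and occurs in 37.5% of all windows. No match was found in the 5 windows for the E-box CACGTG (6.42% of all windows), the sterol regulatory element TCACNCCAC (1.12%) or the estrogen receptor hexamer AGGTCA (16.2%). The same holds for pairs of that hexamer as an inverted repeat spaced by 3 bases (0.00896%) or a direct repeat spaced by 4 bases (0.00598%). The windows of Scd (chr1:253231682-253231981) and Aacs (chr12:36817725-36818024) held none of the searched motifs. A missing match says only that these letters are not in the window.

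Under ethinyl estradiol, all 10 probes read higher on every one of the 3 arrays than on any vehicle array. Their median change was 1.70 on the log2 scale, against -0.05 over all probes. Under equilin the 10 probes were also above every vehicle array, with a median of 1.45 against -0.17 over all probes. Over all tested probes, 5.33% were higher without overlap under ethinyl estradiol and 6.95% under equilin. In the fit, 9 of the 10 passed under ethinyl estradiol (background 1.2% of probes) and 7 under equilin (background 3.69%). Since these comparisons chose the genes, nothing is read from the counts. Single arrays move them: the ethinyl estradiol count was 5 without vehicle replicate 3, vehicle replicate 4 or ethinyl estradiol replicate 2. The equilin count was 4 without vehicle replicate 3, 2 without vehicle replicate 4, 2 without equilin replicate 3 and 0 without equilin replicate 2. Without ethinyl estradiol replicate 3, the array with pancreatic RNA, the median change was 1.65. In whole tissue, more cells of a type and more RNA per cell cannot be told apart.

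**Figure D1:**
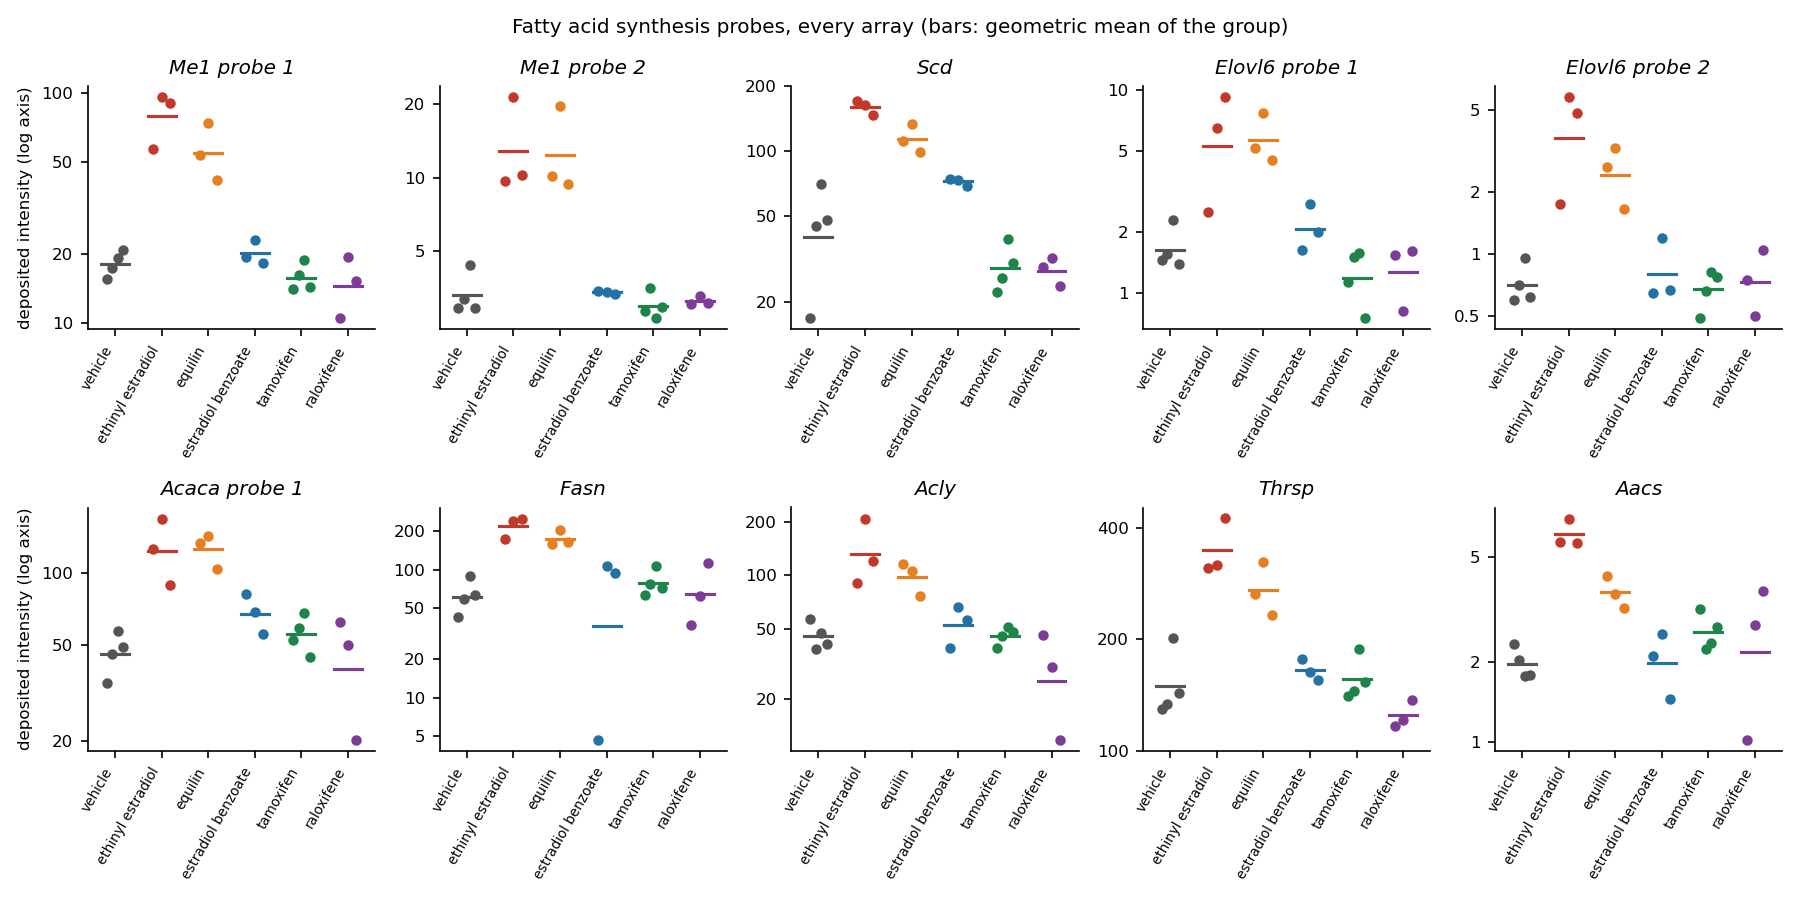
Deposited intensity (log axis, arbitrary units) of the 10 tested probes on each of the 20 arrays, by treatment group; each point is 1 rat and each bar the geometric mean of its group. Ethinyl estradiol and equilin arrays lie above all vehicle arrays in every panel, estradiol benzoate overlaps vehicle, and Fasn has 1 estradiol benzoate array at 4.72.

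Acly encodes ATP citrate lyase, which splits cytosolic citrate into acetyl-CoA and oxaloacetate. Its intensity was 56.5, 38.6, 47.1 and 40.9 in vehicle replicates 1 to 4. It was 90.3, 208 and 120 under ethinyl estradiol, 116, 105 and 76.2 under equilin, and 39.1, 65.9 and 56.2 under estradiol benzoate. The first 2 estrogens lay wholly above vehicle, estradiol benzoate overlapped it, and the ethinyl estradiol arrays spread more than 2-fold. Acly read 38.8, 45.4, 51.1 and 47.8 under tamoxifen, inside the vehicle range. It read 46.3, 30.2 and 11.9 under raloxifene, where replicate 3 was the lowest of all arrays. The change from vehicle was 1.49 (SE 0.35) for ethinyl estradiol and 1.06 (SE 0.35) for equilin.

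Acaca encodes acetyl-CoA carboxylase 1, which makes malonyl-CoA in the committed step of the pathway. Probe 1 read 34.7, 46.2, 57.6 and 49.3 in vehicle. It read 126, 169 and 89.0 under ethinyl estradiol, 134, 143 and 104 under equilin, and 81.8, 68.8 and 55.6 under estradiol benzoate. Estradiol benzoate replicates 1 and 2 were above every vehicle array and replicate 3 was not. Under tamoxifen the probe read 52.5, 59.1, 68.3 and 44.9, and under raloxifene 62.5, 50.2 and 20.2, so both groups overlapped vehicle. The changes were 1.38 (SE 0.31) under ethinyl estradiol and 1.40 (SE 0.31) under equilin, the same within their errors.

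Fasn encodes fatty acid synthase, which builds palmitate from acetyl-CoA and malonyl-CoA. It read 43.0, 59.3, 89.7 and 62.9 in vehicle. It read 173, 238 and 249 under ethinyl estradiol and 158, 201 and 162 under equilin, in both cases above every vehicle array. Under estradiol benzoate it read 4.72, 107 and 94.3, so that replicate 1 was far below every other array and the remaining 2 were above all of vehicle. The SD within groups was 1.05 (log2) for Fasn, against 0.22 to 0.53 for the other tested probes. The change was 1.78 (95% interval 0.28 to 3.28) under ethinyl estradiol and 1.44 (-0.06 to 2.94) under equilin. Without estradiol benzoate replicate 1, the estradiol benzoate change went from -0.80 (adjusted p = 0.871) to 0.67 (adjusted p = 0.989). Tamoxifen arrays read 63.3, 76.7, 106 and 71.8 and raloxifene arrays 37.2, 62.2 and 113, both across the vehicle range.

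Me1 encodes cytosolic malic enzyme, which turns malate into pyruvate and yields NADPH for the synthase. Its probe 1 read 15.6, 17.3, 19.2 and 20.8 in vehicle, a mean of 18.3 ± 2.28 (SD, n = 4). It read 57.1, 96.0 and 90.3 under ethinyl estradiol (81.1 ± 21.0, SD, n = 3) and 53.7, 74.2 and 41.8 under equilin (56.6 ± 16.4, SD, n = 3). It read 19.4, 23.1 and 18.3 under estradiol benzoate, 14.1, 16.2, 18.8 and 14.4 under tamoxifen, and 10.5, 19.4 and 15.2 under raloxifene. Ethinyl estradiol and equilin thus stood apart from the other 4 groups, which overlapped one another. The ethinyl estradiol level was 4.23-fold that of vehicle (95% interval 2.99 to 5.97), and the equilin level 2.93-fold (2.07 to 4.13).

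Me1 probe 2 also had every ethinyl estradiol and equilin array above the arrays of the other groups. It read 2.94, 3.20, 4.38 and 2.94 in vehicle, 9.68, 21.3 and 10.3 under ethinyl estradiol, and 10.2, 19.6 and 9.41 under equilin. It read 3.45, 3.42 and 3.36 under estradiol benzoate, where the arrays hardly differed. It lay between 2.67 and 3.55 under tamoxifen and between 3.05 and 3.29 under raloxifene. Its changes were 1.88 (SE 0.26) for ethinyl estradiol and 1.82 (SE 0.26) for equilin, close to the 2.08 (SE 0.24) and 1.55 (SE 0.24) of probe 1.

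Scd encodes stearoyl-CoA desaturase, which makes oleate and palmitoleate from saturated fatty acids. It read 16.9, 45.2, 70.3 and 48.0 in vehicle, where replicate 1 was the lowest of all 20 arrays. It read 170, 164 and 148 under ethinyl estradiol, 112, 133 and 99.1 under equilin, and 74.6, 73.9 and 69.1 under estradiol benzoate. Every ethinyl estradiol array was above every equilin array, and every equilin array above every estradiol benzoate array. Scd read 22.3, 25.9, 39.4 and 30.4 under tamoxifen and 29.0, 31.9 and 23.7 under raloxifene. These arrays were below vehicle replicates 2 to 4 but above vehicle replicate 1. The change was 1.96 (SE 0.33) under ethinyl estradiol and 1.46 (SE 0.33) under equilin. They were 1.53 and 1.03 without vehicle replicate 1, and 3.24 and 2.74 with the array set as a block.

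Elovl6 encodes the elongase that adds 2 carbons to palmitate. Probe 1 read 1.45, 1.55, 2.28 and 1.39 in vehicle, 2.50, 6.54 and 9.26 under ethinyl estradiol, and 5.16, 7.74 and 4.55 under equilin. It read 1.62, 2.74 and 1.99 under estradiol benzoate, 1.13, 1.51, 1.57 and 0.75 under tamoxifen, and 1.54, 0.81 and 1.61 under raloxifene. Ethinyl estradiol replicate 1 was only just above the highest vehicle array and below estradiol benzoate replicate 2. Probe 2 read from 0.60 to 0.96 in vehicle, 1.76, 5.80 and 4.87 under ethinyl estradiol, and 2.66, 3.28 and 1.67 under equilin. It read from 0.65 to 1.20 under estradiol benzoate and from 0.49 to 1.05 over the tamoxifen and raloxifene arrays. The changes were 1.61 (SE 0.37) and 2.18 (SE 0.35) under ethinyl estradiol for probes 1 and 2, and 1.69 (SE 0.37) and 1.60 (SE 0.35) under equilin. Both probes were dim, and the added constant of 0.103 understates such changes.

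Thrsp encodes Spot 14, a small regulator of lipogenesis that thyroid hormone and carbohydrate induce in rat liver. It read 130, 134, 202 and 143 in vehicle. It read 312, 318 and 425 under ethinyl estradiol, 265, 323 and 232 under equilin, and 177, 163 and 156 under estradiol benzoate. Ethinyl estradiol and equilin were above all vehicle arrays, and estradiol benzoate lay within the vehicle range. It read 141, 145, 189 and 153 under tamoxifen and 117, 121 and 137 under raloxifene. Its spread within groups was the lowest of the 10 probes, an SD of 0.22 (log2). The changes were 1.18 (SE 0.18) under ethinyl estradiol and 0.81 (SE 0.18) under equilin, 2.26-fold and 1.75-fold.

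Aacs encodes acetoacetyl-CoA synthetase, which activates the ketone body acetoacetate in the cytosol for lipid synthesis. It read 2.34, 2.04, 1.77 and 1.79 in vehicle, 5.70, 6.97 and 5.66 under ethinyl estradiol, and 4.24, 3.62 and 3.20 under equilin. It read 2.11, 2.55 and 1.45 under estradiol benzoate, 3.18, 2.24, 2.35 and 2.72 under tamoxifen, and 1.02, 2.76 and 3.71 under raloxifene. The ethinyl estradiol arrays were above all others, and the equilin arrays overlapped 1 raloxifene array. On the centred log2 scale, tamoxifen replicate 1 (1.56) was also above equilin replicate 3 (1.52). The raloxifene arrays spread from below vehicle to above it. The changes were 1.54 (SE 0.30) under ethinyl estradiol and 0.81 (SE 0.30) under equilin.

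Estradiol benzoate was given at the same dose as the other estrogens. Its comparison with vehicle did not choose the genes, but its control arrays also served the comparisons that did, and the same holds for tamoxifen and raloxifene. None of the 10 probes passed in limma (background 0.7% of probes), and 1, Scd, had an unadjusted p under 0.05 (7.69% of all probes). No probe had all 3 arrays above vehicle, against 3.67% of all probes. The median change was 0.11, against -0.12 over all probes, and adjusted p ran from 0.538 to 0.996. Scd had the highest value, 0.81 (95% interval 0.12 to 1.51, adjusted p = 0.538), or 1.76-fold. Without vehicle replicate 1, the array with the lowest Scd, it was 0.39 (adjusted p = 0.651). With the array set as a block, where vehicle replicate 1 is the only control in the same set as the estrogens, it was 2.09 (adjusted p = 0.00387). Acaca probe 1 came next at 0.51 (-0.15 to 1.17, adjusted p = 0.782). The intervals of Me1 probe 1 (-0.39 to 0.61) and Thrsp (-0.28 to 0.47) ended below the changes measured under ethinyl estradiol and equilin.

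**Figure D2:**
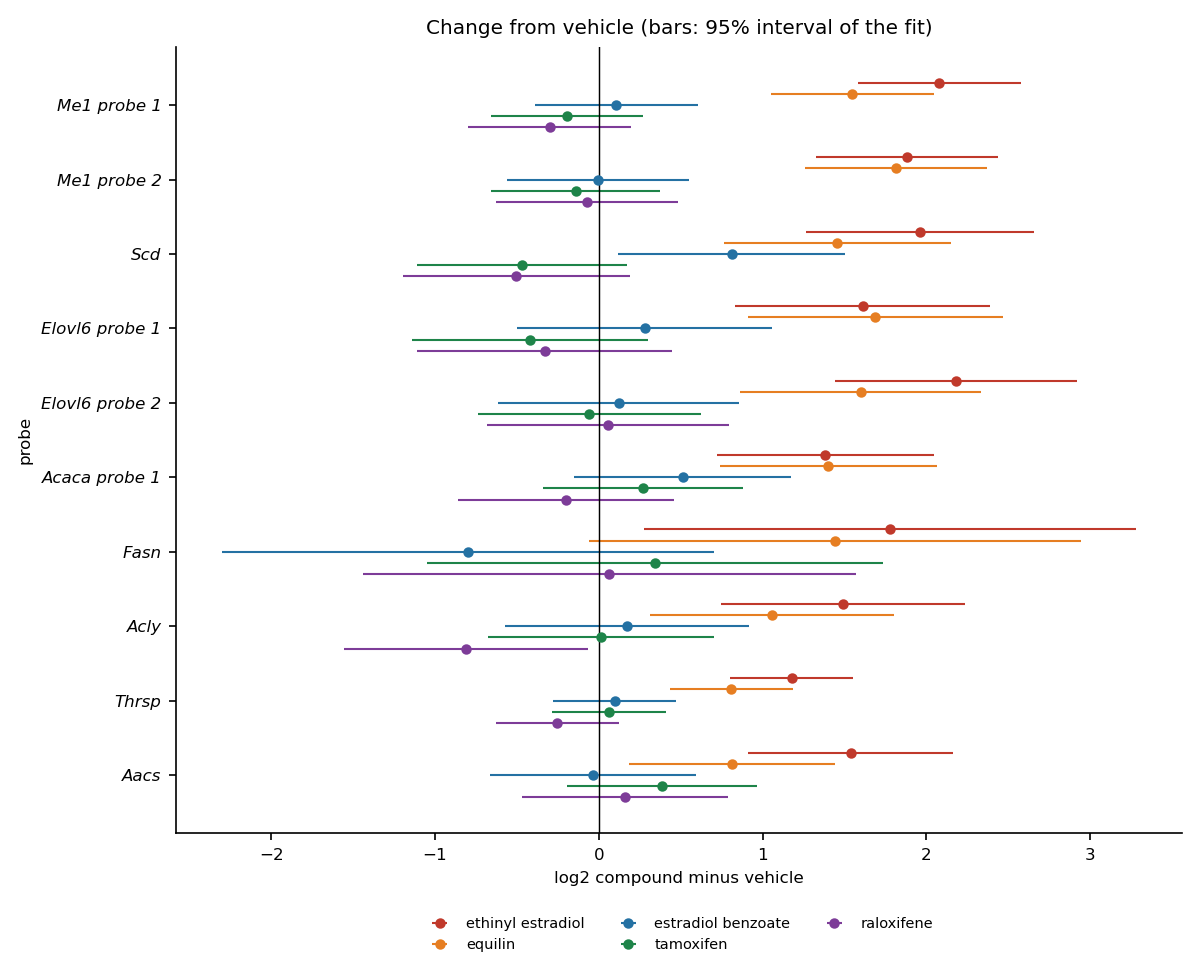
Change from vehicle on the log2 scale for each tested probe (rows) and compound (colours); points are fitted differences and bars their 95% intervals over 20 arrays. Ethinyl estradiol and equilin points lie to the right of 0 for all 10 probes, while all but 1 of the estradiol benzoate intervals and all but 1 of the raloxifene intervals include 0.

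Tamoxifen and raloxifene were given at a higher dose than the estrogens, so their values stand beside them and no comparison across the doses is made. Under tamoxifen none of the 10 probes passed in limma (background 0.224%) and none had an unadjusted p under 0.05 (8.97% of all probes). The median change was -0.02, and adjusted p ran from 0.681 to 0.996. Scd was at -0.47 (95% interval -1.11 to 0.17) and Aacs at 0.39 (-0.20 to 0.97), the lowest and highest of the 10. Under raloxifene none passed in limma (background 2.04%), and 1, Acly, had an unadjusted p under 0.05 with lower signal (27.6% of all probes in either direction). Acly was at -0.81 (-1.56 to -0.07, adjusted p = 0.151). It was at -1.24 (adjusted p = 0.0409) without raloxifene replicate 1, and at -0.26 (adjusted p = 0.747) without the outlying replicate 3. The median raloxifene change was -0.23, and -0.29 without replicate 3.

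The matched doses allow 4 pairs of compounds to be compared. Between tamoxifen and raloxifene, none of the 10 probes passed in limma (background 0.00407%, 1 probe), and Acly alone had an unadjusted p under 0.05 (13.4% of all probes). Its difference was 0.83 (95% interval 0.08 to 1.57, adjusted p = 0.37), tamoxifen being higher. It was 0.28 without raloxifene replicate 3 and 1.25 (adjusted p = 0.131) without raloxifene replicate 1. Thrsp was higher on every tamoxifen array than on any raloxifene array, with a difference of 0.32 (-0.06 to 0.69, adjusted p = 0.39); it was the only 1 of the 10, against 4.74% of all probes. For the rest the intervals include 0, and the widest, that of Fasn, runs from -1.22 to 1.78.

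The 3 pairs of estrogens rest in part on the arrays that chose the genes and are described without p-values. All 10 probes were higher under ethinyl estradiol than under estradiol benzoate, by a median of 1.45 against 0.03 over all probes. The differences ran from 0.87 (0.16 to 1.58) for Acaca probe 1 to 2.58 (0.97 to 4.18) for Fasn. All 10 intervals lay above 0, where 9.04% of all probes had an interval excluding 0 in either direction. The ethinyl estradiol arrays helped to choose the genes, so nothing is read from this count. Me1 probe 1 differed by 1.97 (1.44 to 2.51), or 3.92-fold, Scd by 1.15 (0.41 to 1.89) and Thrsp by 1.08 (0.68 to 1.48). The arrays did not overlap for 9 of the 10, Elovl6 probe 1 being the exception. Over all probes, 15.7% were higher without overlap in this pair. All arrays of this pair belong to the same set of array medians. The Fasn difference includes the estradiol benzoate array at 4.72. Without that array it was 1.11, and the median difference over the 10 probes was 1.16.

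Equilin was higher than estradiol benzoate for all 10 probes, with no overlap of the arrays for any of them (6.34% of all probes). The median difference was 1.15 against -0.05 over all probes. Of the 10 intervals 9 lay above 0, where 3.4% of all probes had an interval excluding 0 in either direction. The equilin arrays also helped to choose the genes, so nothing is read from this count either. Me1 probe 2 differed by 1.82 (1.23 to 2.42), Me1 probe 1 by 1.44 (0.91 to 1.97) and Elovl6 probe 2 by 1.48 (0.69 to 2.26). Scd, with a difference of 0.65 (-0.10 to 1.39), was the exception. Fasn differed by 2.24, and by 0.78 without estradiol benzoate replicate 1. These arrays too lie in the same set of medians.

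Between ethinyl estradiol and equilin the differences were smaller, with a median of 0.40 against 0.08 over all probes. Only the interval of Aacs lay above 0, at 0.72 (0.05 to 1.39), or 1.65-fold. This is 1 of the 10 probes, near the 9.61% of all probes with an interval excluding 0 in either direction. Aacs and Scd were higher on every ethinyl estradiol array than on any equilin array, Scd by 0.50 (-0.24 to 1.25). These are 2 of the 10 probes, against 17.1% of all probes. Me1 probe 1 differed by 0.53 (just below 0 to 1.06) and probe 2 by 0.07 (-0.53 to 0.66). Acaca probe 1 differed by -0.02 (-0.73 to 0.69) and Elovl6 probe 1 by -0.07 (-0.91 to 0.76). The intervals leave room for differences of either sign in most of the genes.

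**Figure D3:**
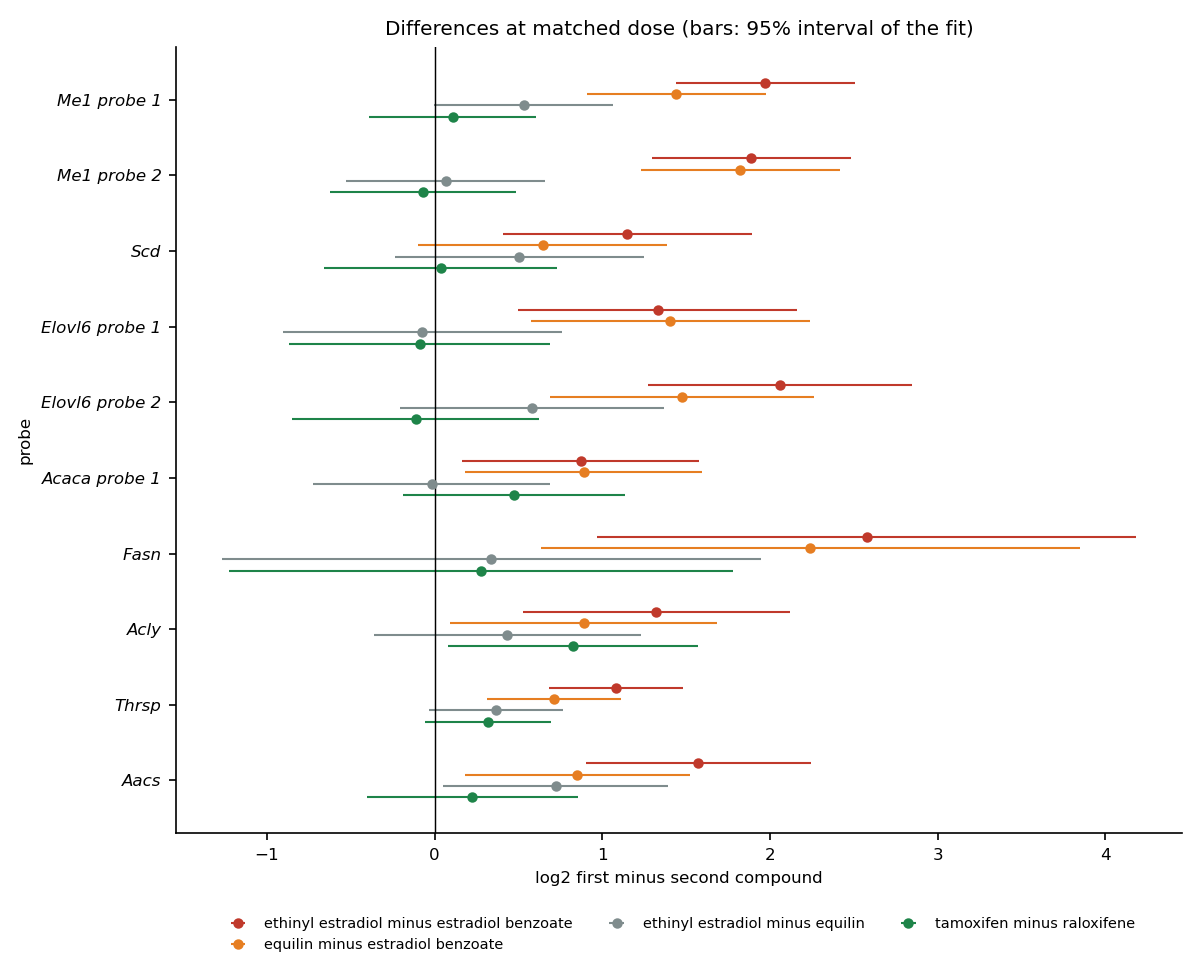
Differences on the log2 scale between compounds given at the same dose, for each tested probe (rows); points are the first compound minus the second and bars the 95% intervals of the fit. All 10 points lie above 0 against estradiol benzoate, with Fasn at 2.58 and 2.24 (1.11 and 0.78 without estradiol benzoate replicate 1). The Aacs interval is the only 1 of ethinyl estradiol minus equilin that excludes 0, as 9.61% of all probes do.

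In some groups the same array was the highest or lowest on most probes. Equilin replicate 2 was the highest of its group on 8 of the 10 probes, and equilin replicate 3 the lowest on 9. Ethinyl estradiol replicate 1 was the lowest of its group on 8 probes and replicate 2 the highest on 6. Among the controls, vehicle replicate 3 was the highest on 7 and replicate 1 the lowest on 7. Estradiol benzoate replicate 2 was the highest on 7, and tamoxifen replicate 3 on 8. Estradiol benzoate replicate 1 was the highest on 3 and the lowest on 4. The raloxifene replicates 1 to 3 were the highest on 2, 3 and 5 probes and the lowest on 5, 2 and 3. The mean deviation of the 8 genes from their own averages was 0.88, 1.45 and 1.30 (log2) on the ethinyl estradiol arrays and 0.90, 1.08 and 0.61 on the equilin arrays. It was -0.69, 0.09 and -0.22 under estradiol benzoate and -0.73, -0.44, -0.09 and -0.41 in vehicle. The gap between the lowest equilin array and the highest array of any other group outside ethinyl estradiol was thus 0.61 against 0.09.

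Across the 20 arrays each gene followed the mean of the other 7 to a different degree, as Pearson's r. Me1 was nearest with 0.963, followed by Thrsp with 0.936, Elovl6 with 0.873, Scd with 0.840, Acly with 0.813 and Acaca with 0.791. Aacs was at 0.681 and Fasn, with its 1 low array, at 0.595. After the group means were removed, the values were 0.648 for Me1, 0.479 for Elovl6 and 0.470 for Thrsp. They were 0.364 for Scd, 0.255 for Fasn, 0.192 for Acly, 0.077 for Acaca and -0.14 for Aacs. The arrays share groups and array-wide scaling, so these values describe these 20 arrays only.

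Fat cells are a known site of fatty acid synthesis, so adipocyte genes were examined on the same arrays. Of 20 listed adipocyte genes, 17 had a probe, and on the brightest of each none passed in limma under any compound against vehicle. At an unadjusted p under 0.05, none of the 17 was higher and none lower under ethinyl estradiol, and 3 were higher under equilin, against 13.9% and 21.4% of all probes. The median change was 0.05 under ethinyl estradiol, with 10 of 17 above 0, and 0.31 under equilin, with 16 of 17 above 0. The 17 changes ran from -0.90 to 0.57 under ethinyl estradiol and from -0.14 to 1.72 under equilin. Adipoq, the adipocyte hormone adiponectin, changed by 0.18 under ethinyl estradiol and 0.46 under equilin. Summed intensity over the 17 genes ran from 1244 to 1938 in vehicle, 1538 to 1628 under ethinyl estradiol and 1677 to 1823 under equilin. It ran from 1282 to 1643 under estradiol benzoate, 1171 to 1614 under tamoxifen and 1249 to 1330 under raloxifene. The vehicle array with the highest sum, replicate 1, was the lowest vehicle array on 7 of the 10 synthesis probes. This is 1 rat, and the only vehicle array in the same set of array medians as the estrogens. None of the 17 genes was at 0 in the vehicle range, and the dimmest, Lep (leptin), read from 0.27 to 0.49 there. The part of the equilin shift in the equilin values was not tested. A separate list of 6 brown adipocyte genes had 4 with a probe. Their summed intensity was 21.8 to 29.2 in vehicle and 27.0 to 37.0 under ethinyl estradiol, with medians of 23.2 and 34.2. It was 24.7 to 29.4 under equilin, 19.8 to 27.2 under estradiol benzoate, 29.8 to 41.0 under tamoxifen and 21.9 to 33.3 under raloxifene. Of the 3 tested genes, none passed in limma against vehicle. The part of brown fat in the synthesis values was not tested.

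**Figure D4:**
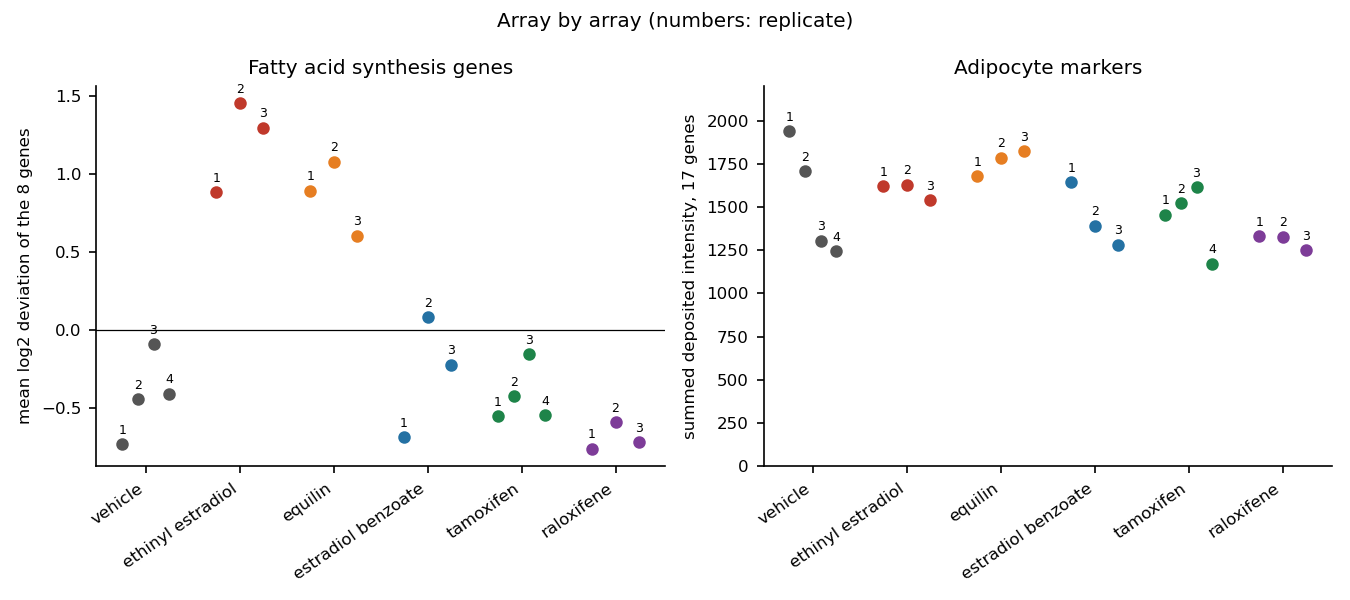
Left, mean log2 deviation of the 8 fatty acid synthesis genes from their own averages on each array; right, summed deposited intensity of 17 adipocyte genes on the same arrays, with replicate numbers beside the points. Ethinyl estradiol arrays are at 0.88 to 1.45 on the left and at 1538 to 1628 on the right, inside the vehicle range of 1244 to 1938.

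Other cell types moved less evenly. The summed intensity of 9 smooth muscle genes was 872 to 971 under ethinyl estradiol and 756 to 902 in vehicle, but 617 to 699 under equilin and 529 to 681 under estradiol benzoate. The sum of 6 hepatocyte genes stayed between 2.47 and 5.14 on all arrays. The endothelial sum over 7 genes was 225 to 261 under ethinyl estradiol, 216 to 251 under equilin and 245 to 298 in vehicle. It was 203 to 283 under estradiol benzoate, 220 to 294 under tamoxifen and 209 to 222 under raloxifene, the last wholly below vehicle. The smooth muscle sum was 530 to 717 under tamoxifen and 675 to 950 under raloxifene. It was thus wholly below vehicle under equilin, estradiol benzoate and tamoxifen, and not under ethinyl estradiol or raloxifene. The sum of 6 fibroblast genes was 246 to 300 under ethinyl estradiol and 230 to 279 under equilin, both wholly below the 304 to 352 of vehicle. It was 291 to 312 under estradiol benzoate, 260 to 319 under tamoxifen and 290 to 411 under raloxifene, which all overlapped vehicle. Of these 6 genes, 1, Col14a1, a collagen, passed lower under each of ethinyl estradiol (-0.81, SE 0.16, adjusted p = 0.0219) and equilin (-0.76, SE 0.16, adjusted p = 0.016), and the medians of the 6 were -0.72 and -0.23. Of the 9 smooth muscle genes, 1 passed higher under ethinyl estradiol, 2 lower under equilin and 1 lower under estradiol benzoate. Of 4 tested hepatocyte genes, 1 passed lower under ethinyl estradiol. The background was 1.2% of probes under ethinyl estradiol, 3.69% under equilin and 0.7% under estradiol benzoate. The part of these cell types in the result was not tested.

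Other genes of the pathway were looked up in 6 lists chosen with earlier results of these data known, each gene by its brightest complete probe. On those probes, among 20 tested regulators, 10 genes of citrate export and NADPH supply, 13 of acyl-CoA and triglyceride synthesis, 16 of fatty acid oxidation and 5 of ketone body use, none passed in limma in any comparison with vehicle. Among 10 of elongation and desaturation, 1 passed, lower under equilin: Scd2, a second stearoyl-CoA desaturase, at -0.87 (SE 0.18, adjusted p = 0.0152). Scd2 was at -0.50 (SE 0.18, adjusted p = 0.202) under ethinyl estradiol, beside the higher signal of Scd under both. Another Scd2 probe had the opposite sign, at 0.43 (SE 0.25) under ethinyl estradiol and 0.28 (SE 0.25) under equilin. It did not pass, so the direction of Scd2 is not settled. Of these genes, 22 had other tested probes, 49 in all, and 3 genes passed on another probe against vehicle. Pc, pyruvate carboxylase, had 25 other probes, of which 8 passed higher under ethinyl estradiol and 13 under equilin, with medians of 0.98 and 1.13. The background was 1.2% and 3.69% of probes. These probes read 1 gene on the same arrays, so they are not separate results. Under equilin, another probe of Fads2, a fatty acid desaturase, was at -0.88 (SE 0.22, adjusted p = 0.0348). Another probe of Oxct1, which activates ketone bodies in mitochondria, was at -0.84 (SE 0.22, adjusted p = 0.0443) there. At an unadjusted p under 0.05, 3 of the citrate and NADPH genes were higher under ethinyl estradiol and 2 under equilin, with none lower. Over all probes, 13.9% had such a p under ethinyl estradiol and 21.4% under equilin. Of the regulators, 1 was higher and 1 lower under ethinyl estradiol, and 1 higher and 4 lower under equilin. In elongation and desaturation, 2 were higher and 3 lower under ethinyl estradiol, and 1 higher and 2 lower under equilin. Acyl-CoA and triglyceride synthesis and ketone body use each had 1 lower and none higher under either compound. Fatty acid oxidation had 1 higher and 1 lower under ethinyl estradiol, and 1 lower under equilin. The medians of the citrate and NADPH list were 0.31 and 0.32, those of the regulators -0.01 under each, and those of fatty acid oxidation 0.18 and 0.00. Those of elongation and desaturation were -0.18 and -0.20, and those of ketone body use -0.36 and -0.29. For acyl-CoA and triglyceride synthesis they were -0.20 and 0.06.

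Slc25a1, the carrier that exports citrate from mitochondria, was at 0.84 (SE 0.29, adjusted p = 0.191) under ethinyl estradiol and 0.70 (SE 0.29, adjusted p = 0.179) under equilin. Its vehicle arrays read 7.77 to 17.5 and its ethinyl estradiol arrays 15.3 to 28.7, which overlap. Insig1, which holds sterol regulatory element-binding proteins in the endoplasmic reticulum and is itself one of their targets, was at 0.79 (SE 0.23, adjusted p = 0.106) and 0.75 (SE 0.23, adjusted p = 0.0772). Its arrays read 23.2 to 34.5 in vehicle, 41.4 to 64.7 under ethinyl estradiol and 46.1 to 48.6 under equilin, without overlap.

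Mid1ip1, a close relative of Thrsp, was at -0.22 (SE 0.22) and -0.09 (SE 0.22) under the same compounds. Acacb, the mitochondrial carboxylase that limits fatty acid oxidation, was at 0.58 (SE 0.28, adjusted p = 0.368) and 0.32 (SE 0.28, adjusted p = 0.524). Nr1h3, the liver X receptor alpha, was at -0.64 (SE 0.30, adjusted p = 0.353) and -0.02 (SE 0.30). Cpt1a, which admits fatty acids to mitochondria, was at 0.44 (SE 0.25) and -0.13 (SE 0.25). Pdk4, a kinase that shuts pyruvate out of acetyl-CoA production, was at 1.56 (SE 0.54, adjusted p = 0.185) and 0.46 (SE 0.54), with dim signal of 0.15 to 0.81 in vehicle. None of these 5 genes passed under either compound. Srebf1 and Mlxipl, both lipogenic transcription factors, are not analysed here.

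**Figure D5:**
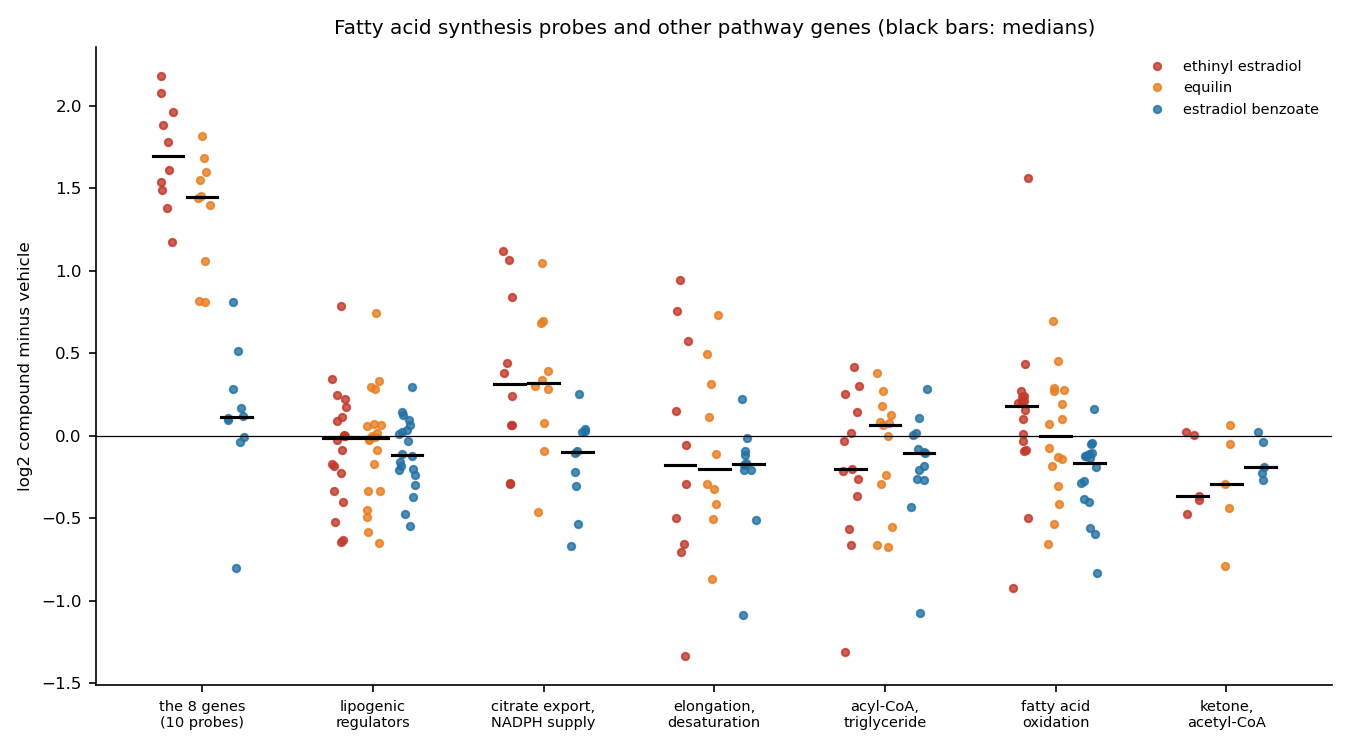
Change from vehicle on the log2 scale for the 10 synthesis probes and for each tested gene of 6 other pathway lists, under ethinyl estradiol, equilin and estradiol benzoate; points are genes and black bars medians. The synthesis probes, which were chosen for this pattern, have medians of 1.70, 1.45 and 0.11, and the medians of the other lists lie between -0.36 and 0.32.

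Among 13255 other probes with 1 symbol, those most like the mean deviation of the 8 genes over the 20 arrays were ranked by Pearson's r, with no p. Mpc1, a subunit of the mitochondrial pyruvate carrier, was first with 0.934 and changed by 1.17 (SE 0.16) under ethinyl estradiol, 0.95 (SE 0.16) under equilin and 0.00 (SE 0.16) under estradiol benzoate. Pdk1, a pyruvate dehydrogenase kinase, followed with 0.916 and changes of 0.85, 0.82 and 0.16. Pc, which replenishes oxaloacetate for citrate, was among the 8 nearest with 2 of its probes, at 0.880 and 0.844. Its probe at 0.880 changed by 1.07 (SE 0.20) under ethinyl estradiol and 1.18 (SE 0.20) under equilin. The brightest complete Pc probe, used for the list above, was at 1.06 (SE 0.31, adjusted p = 0.101) and 1.05 (SE 0.31, adjusted p = 0.0665). The others were Tcof1 at 0.884, Mgst2 at 0.880, Cckbr at 0.848 and Pfkl, the liver-type phosphofructokinase, at 0.845.

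With the group means removed, r was 0.488 for Mpc1, 0.533 for Pdk1, 0.514 for Pfkl and -0.25 for Cckbr. These probes were picked by their r over the same arrays, which includes the part within groups. The values are therefore a description only. The lowest r were those of Cpa3, a mast cell carboxypeptidase, at -0.84, Abcg1, a cholesterol exporter, at -0.83, Slc27a6, a fatty acid transporter, at -0.80, and Tm9sf3 at -0.79. Abcg1 changed by -1.37 (SE 0.24) under ethinyl estradiol, -1.08 (SE 0.24) under equilin and -0.56 (SE 0.24) under estradiol benzoate. Within groups its r was -0.06.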

How the data were processed

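CodeLink whole rat genome arrays of mesenteric artery RNA were used, 1 array per rat, 20 in all. The authors deposited 1 linear intensity per probe and array, scaled per array, with 0.757% of values below 0. Per the labels' protocols and the series' design text, the scanner was a GenePix 4000B run with GenePix Pro 5.0, and CodeLink Expression Analysis, Acuity 3.1 and GeneSpring 7.1 were used. The sources used here do not say which program made the values or how background was handled.

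Values at or below 0 were set to 0, 0.103 (0.1 times the median) was added, and log2 values were centred on each array's median. Left out were 40 probes with over 1 missing value in a group, then the dimmest 30% by mean, which left 24562. With limma 3.58.1 (R 4.3.3, eBayes, trend in intensity), 1 mean per group was fitted on the 20 arrays, with Benjamini-Hochberg adjustment per comparison. The fit was also run on simulated data with independent normal noise. These had no array sets or outlying arrays, so they cannot show how the fit handles those. Of the 35129 probes, 16865 carry 1 symbol, 165 several and 18099 none. Promoters came from RefSeq (GRCr8).

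The members and lists were chosen with earlier results of these data known. Every member probe is named. Pathway genes were named where they passed against vehicle, with a fixed set (Nr1h3, Insig1, Mid1ip1, Slc25a1, Scd2, Acacb, Cpt1a, Pdk4), and the 8 probes most and 4 least like the members over the arrays. Listed genes use their brightest complete probe. Alternatives were normalisation, offset, filter, variance trend, array weights, blocks, only the compared groups, and leaving out each array. Groups of 3 or 4 rats limit every value, and p-values measure the spread between rats. Same-numbered replicates deviated together in few of the pairs examined (4 of 19 above 0.1), and pairs between estrogens were not examined. Numbers were not used as pairs.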

Additional observations from a re-analysis of the deposited data

How the results depend on the processing

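The median change over the 10 tested probes stayed positive under ethinyl estradiol (1.49 to 1.96) and equilin (1.25 to 1.85) in 32 alternatives each. How many passed moved more: limma's calls over all probes ran from 9 to 739 for ethinyl estradiol, 0 to 6861 for equilin, 0 to 491 for estradiol benzoate, 18 to 3797 for tamoxifen, 0 to 4390 for raloxifene and 0 to 1400 for tamoxifen against raloxifene. Of 10 probes, 9 passed under ethinyl estradiol, 4 with the array set as a block (median 1.96), 2 with only the compared groups fitted, and 5 to 9 with 1 array left out (median 1.49 to 1.94). Under equilin 7 passed, 3 with the array set as a block (median 1.85) and 0 to 9 with 1 array left out, with a median of 1.70 under array weights. With the array set as a block, 1 probe (Scd) passed under estradiol benzoate. Leaving out 1 array gave 0 to 1 for raloxifene, where Acly passed without raloxifene replicate 1. Under array weights 1 probe (Aacs, adjusted p = 0.0200) passed for tamoxifen against raloxifene. The median difference between ethinyl estradiol and estradiol benzoate was 1.16 to 1.75 with 1 array left out, and that between ethinyl estradiol and equilin 0.12 under array weights. No probe passed for tamoxifen against vehicle in any of the 32 alternatives. The cause of these shifts was not tested.

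With the replicate block, 5 of the 10 probes passed under ethinyl estradiol. Over 19 pairs of same-numbered arrays, none of them between estrogens, deviations correlated between -0.43 and 0.30. This cannot show whether the numbers pair rats, and they were not used as pairs. The block moved no other count of the 10 probes by over 1.5 times.

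The small groups and the dim signal of Elovl6 and Aacs limit what can be seen. The array set coincides with the estrogen groups except for 1 vehicle array, so that set and treatment cannot be told apart in most comparisons with vehicle.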
